A study of Mus musculus with 12 samples.

Results

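Gene expression was compared between gingiva collected 8 days after a ligature was tied and unligated (naive) gingiva of wildtype (WT) mice. The comparison rested on 6 of the 12 RNA-seq libraries of the study, 3 WT ligated and 3 WT naive, chosen by their labels. The other 6 libraries came from ligated and naive CybbKO mice, which lack the Nox2 subunit encoded by Cybb by their labels, and they entered the fit to share the estimate of the spread and gave a second ligature response. Cybb was not absent from the libraries labelled CybbKO, at 51.1 to 63.7 CPM in ligated and 41.6 to 56.3 CPM in naive gingiva, against 4.19 to 15.2 CPM in the WT libraries, so the transcript does not check that label. All WT mice were C57BL/6 by the labels (C57BL/6J by the study's methods) and less than 12 weeks old, and they were matched for age and sex. The CybbKO mice were also less than 12 weeks old. In the ligated group a silk thread was tied around a maxillary molar, and the gum tissue around that tooth was taken when the mice were killed. Each library came from a separate mouse, so ligated and naive values were not paired within an animal. The naive mice carried no thread, so the procedure, the thread and what collects on it cannot be told apart. The time of day of collection was not given in the sources used here.

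Ligature placement is the standard mouse model of periodontitis. The thread holds bacteria against the gingival margin, neutrophils and monocytes enter the tissue, and osteoclasts resorb the alveolar bone under it. Gingiva is a keratinized epithelium over a connective tissue whose fibroblasts make fibrillar collagen, and wound repair in such tissue combines matrix breakdown by metalloproteinases with new matrix, new vessels and cell division. In bulk tissue, a lower value from fewer cells of a type and one from less RNA per cell cannot be told apart, and the same holds for higher values.

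The 6 WT libraries held between 27958819 and 39738913 counts, and between 16373 and 16732 genes had at least 1 count in each. Values below are CPM, counts scaled to a library total of 1000000 with edgeR's TMM factors, given in the order of libraries 1, 2 and 3 of a group, with no pairing implied by the numbers. The naive libraries were less alike than the ligated ones. Pearson's r of log2 CPM across genes lay between 0.978 and 0.985 among the ligated libraries, between 0.95 and 0.982 among the naive libraries, and between 0.951 and 0.976 across the groups. Genes of salivary and mucous glands took 78.9, 3050 and 33400 CPM in the naive libraries and 5860, 4060 and 3030 CPM in the ligated libraries, and so varied most among the naive mice. Red blood cell genes took 1210 CPM in ligated library 3 against 126 to 278 CPM in the other 5. Keratins and other genes of the cornified gingival epithelium took 83900 to 153000 CPM in all 6 libraries, which fits the labelled tissue. The 4 Y-linked genes examined (Ddx3y, Eif2s3y, Kdm5d and Uty) were counted at 21.8 CPM or more in every library, and none was called between the groups.

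Of 15046 genes tested with edgeR's quasi-likelihood test, 481 were called at a Benjamini-Hochberg adjusted p under 0.05, which is 3.2% of the genes tested. Higher in ligated gingiva were 348 genes (2.31% of those tested) with a median log2 fold change of 1.49. Lower were 133 genes (0.884% of those tested) with a median of -0.86, while the median over all genes tested was -0.03. At least 2-fold changes were called for 279 higher and 46 lower genes. Called genes were more often higher than lower, 72.3% against the rest. With library totals alone as the scaling, the median of all genes moved to 0.08 and the split to 477 higher and 68 lower, or 87.5% higher. In 480 of the 481 called genes the ligated and naive libraries did not overlap. DESeq2, which called more genes in its test and is given below for most lists, called 5.76% of genes higher and 3.35% lower, or 9.11% in either direction. Over all genes tested, 13.3% had all ligated libraries above all naive ones and 11.6% the reverse.

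How many genes passed depended on single libraries. Without naive library 2, 27 genes were called, and without naive library 3, 737 were called. Leaving out ligated library 1, 2 or 3 gave 247, 110 or 120 calls, and leaving out naive library 1 gave 113. The 27 genes called without naive library 2 were also called with each of the other 5 libraries left out and under every other setting tried, and they are named here for that reason, after their values were seen. Among the 24 higher ones, 10 belonged to the list of G2/M and mitosis genes (Aspm, Ccnb2, Cenpa, Cenpe, Cenpf, Dlgap5, Kif14, Kif20a, Kif2c and Tpx2). A further 4 also act in cell division or chromosome maintenance: Cit, the citron kinase of cytokinesis, Knstrn of the mitotic spindle, Iqgap3, a scaffold protein of proliferating cells, and Parpbp, an inhibitor of homologous recombination. The matrix genes Col11a1, Fbn1 and Fndc1, the adipokine gene C1qtnf3, the slow muscle genes Tnnt1 and Casq2, the clock activator Npas2, the vascular connexin gene Gja5, and Ankk1 and Dtx4 made up the rest. The 3 lower ones were Per2, a repressor of the circadian clock, Ccnd1, which encodes cyclin D1, and Eppk1, which encodes the keratin-binding protein epiplakin. Every call outside these 27 was lost in at least 1 of these reduced fits, and the library that decided it is given below where a group of genes rests on it.

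Connective tissue genes formed the first large group, with fibrillar collagens, elastic fibre genes and the enzymes that cross-link them among the called genes. Of 28 collagens and matricellular genes tested, 14 were called higher and none lower, and the median log2 fold change was 1.55. DESeq2 called 21 of them higher and none lower. Col3a1, which encodes the main collagen of early wound matrix, reached 1930, 2260 and 2800 CPM in the ligated libraries against 386, 562 and 783 CPM in the naive libraries (log2 fold change 2.02 ± 0.39 (SE), adjusted p = 0.0247). Col1a2, the second chain of type I collagen, stood at 1520, 1780 and 2600 CPM against 520, 625 and 772 CPM (1.62 ± 0.37, adjusted p = 0.0397). The groups did not overlap for either gene. Col1a1, which encodes the partner chain, was also apart in every library, with 765 to 1310 CPM against 239 to 519 CPM, but did not pass the test (1.47 ± 0.40, adjusted p = 0.0685).

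The largest log2 fold change of that list was that of the elastic fibre gene Eln. Eln, the elastin gene (chr5:134702593-134747323, GRCm38, minus strand), was at 170, 220 and 84.1 CPM in ligated and at 10.8, 14.0 and 26.1 CPM in naive gingiva, a log2 fold change of 3.22 ± 0.45 with adjusted p = 0.00729. Fbn1, which encodes the microfibril protein fibrillin-1 (chr2:125300594-125507993, minus strand), was at 112, 147 and 106 CPM against 17.2, 22.5 and 28.6 CPM (2.42 ± 0.31, adjusted p = 0.00502). Lox, which encodes the lysyl oxidase that cross-links collagen and elastin, was at 68.3, 91.8 and 111 CPM against 9.75, 10.8 and 24.1 CPM (2.61, adjusted p = 0.0248). All 3 ligated libraries were above all 3 naive ones for each. Ligated library 3 was the lowest of its group for Eln and the highest for Lox. Basement membrane collagens Col4a1 and Col4a2 were called with log2 fold changes of 1.89 and 1.64, while Col7a1 of the anchoring fibrils (0.34, adjusted p = 0.493) and the hemidesmosomal Col17a1 (-0.44, adjusted p = 0.192) were not. The small leucine-rich proteoglycan gene Dcn gave -0.01, with 420 to 640 CPM in ligated and 493 to 625 CPM in naive gingiva. These calls were not firm, since between 1 and 16 of the 28 genes were called when 1 WT library was left out, fewest without naive library 2, and Fbn1 held throughout. The list's median stayed between 1.32 and 1.69.

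**Figure D1:**
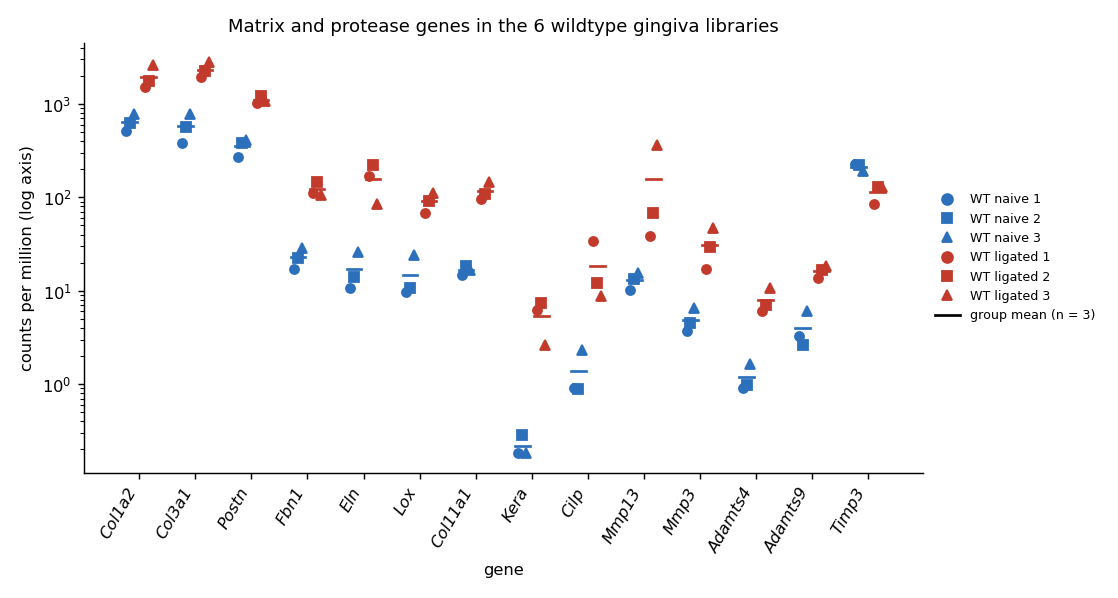
CPM (log axis) of 14 matrix and protease genes in the 3 WT naive (blue) and 3 WT ligated (red) libraries, with the symbol giving the library number and lines the group means. All ligated values lie above all naive values for 13 genes and below them for Timp3, and Mmp13 spans 38.1 to 363 CPM within the ligated group.

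Genes linked to tendon, ligament and cornea stood among the strongest changes. Of 17 tendon and ligament genes, 5 were called higher (Col11a1, Col12a1, Cilp, Epyc and Kera) and none lower, with a median of 0.73. EdgeR called 3 with the replicate block and 3 with at least 10 counts required in every library, while DESeq2 called 7. Col11a1, which encodes a minor fibrillar collagen that nucleates thin fibrils (chr3:114030540-114220718, plus strand), was at 95.5, 108 and 145 CPM against 14.9, 18.2 and 16.5 CPM (2.81 ± 0.35, adjusted p = 0.00491). Kera, the gene of the proteoglycan keratocan (chr10:97606879-97613692, plus strand), was at 6.20, 7.35 and 2.65 CPM against 0.183, 0.285 and 0.182 CPM (4.61 ± 0.68, adjusted p = 0.0087). Cilp, a matrix protein gene first known from cartilage, was at 33.9, 12.1 and 8.74 CPM against 0.914, 0.886 and 2.30 CPM (3.75 ± 0.63, adjusted p = 0.0153). The groups were apart in each case, and the tendon transcription factor genes Scx (0.31, adjusted p = 0.819) and Mkx (0.23, adjusted p = 0.787) were not called. Col11a1 kept its call with each WT library left out. Kera lost it without naive library 2, Cilp without naive library 1 or 2, Epyc (3.79, or 2.48 without ligated library 2) without ligated library 2 or any 1 naive library, and Col12a1, whose adjusted p was 0.05, with any single WT library left out.

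Metalloproteinases that cut matrix followed. Of 22 metalloproteinases and TIMPs, 7 were called higher and 1 lower, with a median log2 fold change of 0.95. DESeq2 called 12 higher and 1 lower. The called proteases were the stromelysin Mmp3, the membrane-bound collagenase Mmp14, and 5 members of the ADAMTS family: the aggrecanases Adamts4, Adamts5, Adamts9 and Adamts15, and Adamts2, which trims procollagen. Adamts4 was at 6.05, 7.12 and 10.8 CPM against 0.914, 0.980 and 1.64 CPM (2.77 ± 0.55, adjusted p = 0.0262). Mmp3 was at 17.2, 29.4 and 46.7 CPM against 3.72, 4.46 and 6.49 CPM (2.67 ± 0.62, adjusted p = 0.0422). Timp3, a matrix-bound inhibitor of these enzymes, fell from 229, 220 and 191 CPM to 84.6, 130 and 130 CPM (-0.90 ± 0.17, adjusted p = 0.0247). Its 3 ligated values were all under its 3 naive values. Mmp13, the main collagenase of rodent bone and gum, had the largest estimate of the list, 3.58 ± 0.96, but did not pass (adjusted p = 0.0665). Its ligated values were 38.1, 67.6 and 363 CPM and its naive values 10.3 to 15.6 CPM. Without ligated library 3 its estimate was 2.02, below those of Adamts4 (2.49) and Mmp3 (2.26) in that fit. Mmp9, a neutrophil and osteoclast gelatinase, gave 26.4, 37.1 and 104 CPM against 29 to 41.9 CPM, with overlap. Ligated library 3 held the highest value of 17 of these 22 genes. With naive library 2 left out none of the 8 calls held, and between 1 and 7 genes were called without any other single WT library.

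Genes of mitosis rose, while the few called genes of G1/S fell. Of 40 genes of G2 and mitosis, 36 were called higher, all 40 had a log2 fold change above 0, and the median was 1.49. Of 35 genes of G1/S and DNA replication, none was called higher and 7 were called lower (Ccnd1, Ccnd2, Ung, Cdt1, Chaf1b, Mcm2 and Rpa2), 32 were below 0, and the median was -0.57. DESeq2 called 39 of the 40 G2/M genes higher and 14 of the 35 G1/S genes lower. Of those 35, edgeR called 3 on the 6 WT libraries alone, 3 with the replicate block and 4 with library totals as the scaling. Both lists were written after the called genes had been seen, so the counts describe the calls and are not a separate test of them. A list of 27 cell cycle and replication genes that spans both phases had 15 called higher and 1 lower, with a median of 1.30. DESeq2 called 17 of these 27 higher and 7 lower.

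Ccnb2, which encodes a mitotic cyclin (chr9:70407692-70421547, minus strand), was at 29.9, 24.3 and 30.8 CPM in ligated and 7.28, 6.39 and 8.78 CPM in naive gingiva (1.92 ± 0.23, adjusted p = 0.00491). Cenpe, the gene of a kinetochore motor, was at 35.7, 27.6 and 36.4 CPM against 9.08, 7.88 and 8.38 CPM (1.98 ± 0.20, adjusted p = 0.00243). Mki67, which encodes the proliferation antigen Ki-67, was at 190, 161 and 206 CPM against 68.4, 55.1 and 54.6 CPM (1.64 ± 0.24, adjusted p = 0.0087). Within each group the libraries were close and between groups they were well apart. Cdk1, the kinase that starts mitosis, stood at 39.3, 29.6 and 46.5 CPM against 18.9, 17.5 and 12.8 CPM (1.23, adjusted p = 0.0277), and Cdc20, an activator of the anaphase-promoting complex, at 47.8, 34.8 and 37.8 CPM against 12.1, 18.9 and 18.1 CPM (1.30, adjusted p = 0.0264). The 4 members that did not pass were Aurkb, Bub1, Cdc25b and Ndc80, of which Cdc25b was near 0 (0.11, adjusted p = 0.779).

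At the G1/S end, Ccnd1 (chr7:144929931-144939925, minus strand) fell from 252, 265 and 223 CPM to 80.9, 112 and 76.8 CPM (-1.45 ± 0.14, adjusted p = 0.00243). Ccnd2, which encodes cyclin D2, was at 83.7, 121 and 117 CPM against 341, 278 and 217 CPM (-1.38 ± 0.21, adjusted p = 0.00926). Ligated values of both D cyclins lay below every naive value, while Ccnd3 had 23.1 to 25.8 CPM in ligated and 23.9 to 36.6 CPM in naive gingiva (-0.22, adjusted p = 0.492). The replicative helicase genes Mcm2 to Mcm7 all had log2 fold changes below 0, from -1.09 for Mcm3 to -0.56 for Mcm7, and Mcm2 alone passed (-1.02, adjusted p = 0.0439). Mcm2 showed how much the naive mice differed, with 32.9, 31.1 and 17.4 CPM against 12.0, 14.7 and 13.3 CPM. Naive library 1 held the highest value of 25 of the 35 G1/S genes and naive library 3 of 1. Without naive library 3, 19 G1/S genes were called, and without naive library 2 only Ccnd1 was. For the G2/M list, 10 to 31 genes were called with 1 WT library left out, again fewest without naive library 2.

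**Figure D2:**
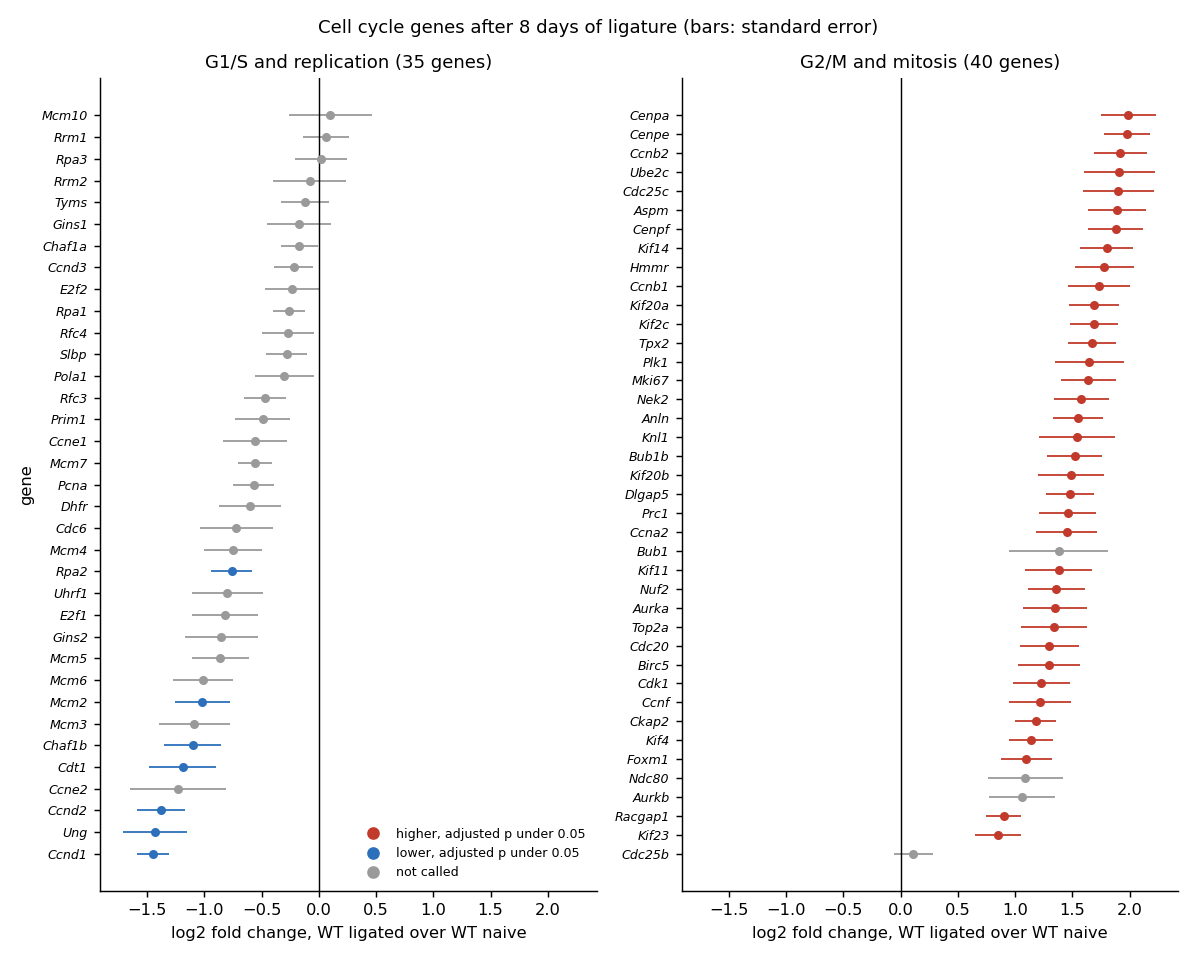
Log2 fold change of WT ligated over WT naive for 35 G1/S and 40 G2/M genes, with standard errors from the edgeR fit; red points were called higher, blue points lower and grey points neither. G2/M genes lie to the right of 0 with 36 of 40 called, and 32 of 35 G1/S genes lie to the left with 7 called.

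Promoter sequence is a feature of these genes that the expression values did not use. Both lists were written after the calls were seen, so their motif shares describe the list members and do not test the changes. Members that were not called, such as Bub1 and Cdc25b, also held CCAAT. The cell cycle genes homology region, TTTGAA, and the CCAAT box are the known elements of promoters active in G2 and mitosis. RefSeq promoters on GRCm38.p6 were matched for 33 of the 40 G2/M genes, 28 of the 35 G1/S genes and 11737 of the genes tested, and the 200 bases before each start were searched on both strands. TTTGAA was found in 10 of 33 G2/M promoters (30.3%), in 1 of 28 G1/S promoters (3.57%), in 8.02% of the promoters of genes tested and in 12.7% of all 27025 promoters in the table. CCAAT was found in 26 of 33 G2/M promoters (78.8%), in 18 of 28 G1/S promoters (64.3%), in 32.1% of those of genes tested and in 30% of all. The 2 motifs do not overlap in letters. The promoters of Ccnb2, Cdc20 and Cdk1 are shown because each holds both, with TTTGAA and CCAAT in capitals, the second written ATTGG where it lies on the other strand. They lie at chr9:70421555-70421754, chr4:118437344-118437543 and chr10:69352913-69353112, all on the minus strand.
Ccnb2: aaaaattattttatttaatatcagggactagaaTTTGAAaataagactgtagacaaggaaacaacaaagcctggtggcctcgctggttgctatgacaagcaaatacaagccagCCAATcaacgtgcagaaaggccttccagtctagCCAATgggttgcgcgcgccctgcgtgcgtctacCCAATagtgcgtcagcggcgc
Cdc20: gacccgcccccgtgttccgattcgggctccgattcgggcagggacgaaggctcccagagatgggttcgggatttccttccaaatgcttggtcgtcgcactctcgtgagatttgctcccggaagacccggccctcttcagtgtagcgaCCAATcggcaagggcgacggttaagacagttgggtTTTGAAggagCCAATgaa
Cdk1: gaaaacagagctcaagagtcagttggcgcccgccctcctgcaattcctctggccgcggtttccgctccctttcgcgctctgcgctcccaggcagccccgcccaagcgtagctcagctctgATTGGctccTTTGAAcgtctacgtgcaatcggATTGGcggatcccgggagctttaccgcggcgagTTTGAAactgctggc
TTTGAA begins 18 bases before the start in Cdc20, 71 and 15 bases before it in Cdk1, and 167 bases before it in Ccnb2. A match is a run of letters in this window and was not tested as a bound site.

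Among circadian clock genes, those that were called split by role. The clock is a feedback loop in which CLOCK or NPAS2 pairs with BMAL1 (Arntl) to activate genes through E-boxes, and the products of some of these, PER and CRY, shut the activators down. Of 24 clock genes tested, 2 were called higher, both activators, and 8 were called lower, all of them repressors or output genes (Per2, Per3, Ciart, Tef, Hlf, Bhlhe41, Nr1d2 and Wee1). Not called were 14, among them Clock, Per1, Cry1, Cry2 and Nr1d1. Log2 fold changes were above 0 for 6 and below 0 for 18 of the 24, with a median of -0.89. DESeq2 called 3 higher and 11 lower. This list, too, was written after the calls were seen, and the split by role was not tested.

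Npas2 (chr1:39193731-39363236, plus strand) was at 17.9, 11.7 and 17.0 CPM in ligated and 1.92, 2.59 and 3.75 CPM in naive gingiva (2.50 ± 0.32, adjusted p = 0.00502). Arntl (chr7:113207465-113314126, plus strand) was at 63.0, 45.5 and 50.5 CPM against 17.3, 23.1 and 14.3 CPM (1.54 ± 0.27, adjusted p = 0.0165). Clock itself had 305, 284 and 256 CPM against 253, 248 and 166 CPM, apart in all libraries but small in size (0.34, adjusted p = 0.320). On the repressor side, Per2 (chr1:91415982-91459324, minus strand) fell from 103, 67.3 and 27.3 CPM to 5.90, 6.49 and 4.15 CPM (-3.58 ± 0.50, adjusted p = 0.00729), the largest fall among the called genes. Its naive values differed widely from each other, and all were above the ligated values. Ciart, a repressor of CLOCK and BMAL1, was at 1.34, 4.11 and 2.31 CPM against 22.1, 20.5 and 19.2 CPM (-2.99 ± 0.62, adjusted p = 0.0282). Per3 was at 19.1, 33.3 and 18.8 CPM against 112, 83.6 and 67.1 CPM (-1.88, adjusted p = 0.0298).

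Among the output genes, which encode factors that relay the rhythm, Tef was at 63.2, 118 and 78.5 CPM against 357, 321 and 277 CPM (-1.88 ± 0.43, adjusted p = 0.042). Dbp, its close relative, was at 5.87, 18.8 and 8.48 CPM against 81.1, 82.1 and 110 CPM, a difference of -3.04 ± 0.80 that did not pass (adjusted p = 0.0617) although the groups were far apart. Per1 (-1.49, adjusted p = 0.0774), Nr1d1 (-1.21, adjusted p = 0.230), Cry1 (-0.74, adjusted p = 0.313) and Cry2 (-1.05, adjusted p = 0.0623) did not pass either. Wee1, a kinase gene under clock control that delays mitosis, was at 16.2, 14.3 and 23.4 CPM against 64.9, 41.1 and 28.2 CPM (-1.32, adjusted p = 0.0295). Between 2 and 10 of the 24 genes were called with 1 WT library left out, fewest without naive library 1 or 2, and Per2 and Npas2 were called in each. The part that the hour of collection had in these values was not tested.

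**Figure D3:**
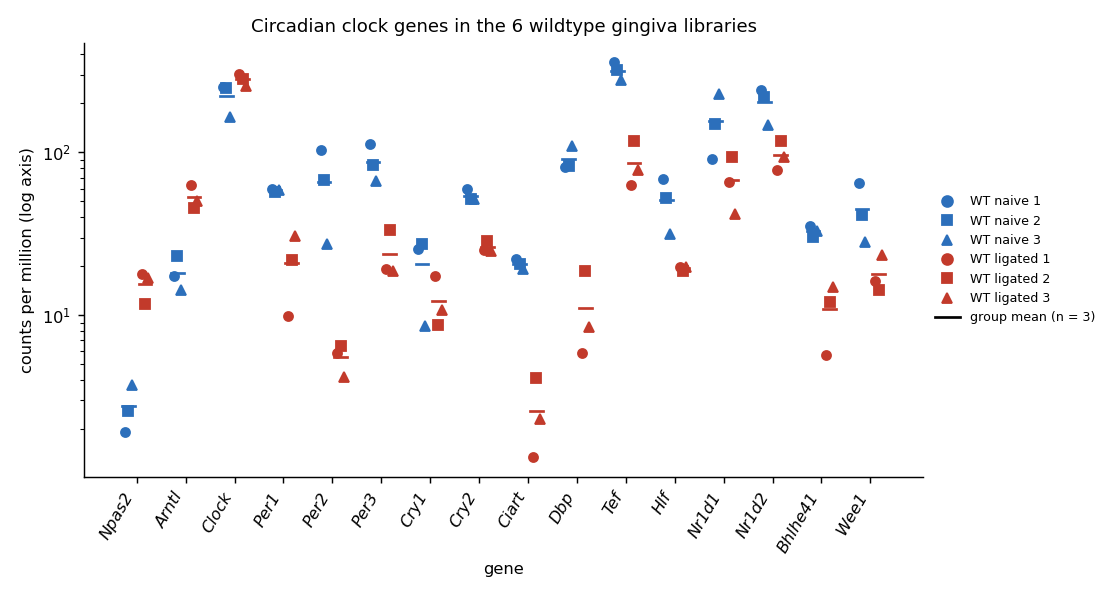
CPM (log axis) of 16 circadian clock genes in the 3 WT naive (blue) and 3 WT ligated (red) libraries, with the symbol giving the library number and lines the group means. Ligated values of Npas2, Arntl and Clock lie above the naive ones, while those of Per2, Per3, Ciart, Dbp, Tef and Bhlhe41 lie below.

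The E-box CACGTG was found within 200 bases before the start in 5 of the 18 clock genes with a RefSeq promoter (27.8%: Per1, Cry1, Tef, Bhlhe41 and Ciart), against 6.94% of the promoters of genes tested and 5.28% of all in the table. The promoters of Tef (chr15:81802473-81802672, plus strand) and Ciart (chr3:95882229-95882428, minus strand) are shown, since both genes were called lower and both hold the palindrome, given in capitals.
Tef: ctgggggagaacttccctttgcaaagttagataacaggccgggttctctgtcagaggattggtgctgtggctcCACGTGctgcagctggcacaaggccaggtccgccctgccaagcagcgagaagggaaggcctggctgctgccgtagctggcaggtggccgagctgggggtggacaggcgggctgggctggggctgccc
Ciart: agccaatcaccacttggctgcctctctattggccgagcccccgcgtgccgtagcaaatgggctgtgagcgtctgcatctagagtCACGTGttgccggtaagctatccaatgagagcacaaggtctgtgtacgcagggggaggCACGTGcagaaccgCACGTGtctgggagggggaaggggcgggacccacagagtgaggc
Ciart holds 3 copies, at 116, 58 and 44 bases before the start, and Tef holds 1 at 127 bases. As above, these are matches of letters only, in a list written after the calls were seen, and Per1 and Cry1 were not called.

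Neutrophil genes passed edgeR's test in a larger share than the 2.31% of all genes tested called higher, though few in number. The ligated mice differed among themselves. Log2 fold changes were above 0 for 13 of 15 granule and 20 of 23 receptor and identity genes. In 11 of those 23 all ligated libraries were above all naive ones, against 13.3% of all genes tested. The summed level of the granule genes was apart, with 3470 to 5460 CPM in ligated and 2650 to 3050 CPM in naive gingiva. That of the receptor and identity genes overlapped, with 1610 to 2250 CPM in ligated and 1930 to 2740 CPM in naive gingiva. Such a sum rests on its most abundant members, and Csf3r, Cxcr2 and Clec4e, given below, make up little of it. DESeq2 called more, 7 of the 15 granule genes and 12 of the 23 receptor and identity genes. Of 15 granule and calgranulin genes tested, 2 were called higher (S100a8 and Cybb), and the median log2 fold change was 1.28. Of 23 genes of neutrophil receptors and identity, 3 were called higher (Clec4e, Mmp25 and Slfn4), and the median was 1.73. S100a8, a subunit of calprotectin (chr3:90668978-90670035, plus strand), was at 597, 1050 and 1510 CPM against 333, 131 and 114 CPM (2.45 ± 0.57, adjusted p = 0.0427). Cybb itself, the catalytic subunit of the phagocyte NADPH oxidase (chrX:9435252-9487771, minus strand), was at 8.41, 15.2 and 12.8 CPM against 5.60, 5.38 and 4.19 CPM (1.26 ± 0.22, adjusted p = 0.0156). All ligated values of both genes were above all naive values, and ligated library 1 was the lowest of its group.

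For 3 receptor genes of neutrophils, ligated library 1 was again the lowest of its group and library 3 the highest. Csf3r, the G-CSF receptor gene, was at 12.3, 20.4 and 32.9 CPM against 5.51, 6.64 and 9.73 CPM (1.58, adjusted p = 0.135). Cxcr2, the receptor for CXC chemokines, was at 9.28, 9.71 and 16.3 CPM against 7.34, 6.77 and 5.36 CPM (0.86, adjusted p = 0.165). Clec4e, which encodes the pattern receptor Mincle, was at 2.56, 6.38 and 12.8 CPM against 1.40, 1.11 and 1.31 CPM (2.51, adjusted p = 0.0374). Ligated library 3 held the highest value in 19 of the 23 receptor and identity genes, against 3159 of the 15046 genes tested (21%). Ly6g, the defining surface marker, was at or below 0.285 CPM in all 6 libraries, and Mpo, Elane, Prtn3 and Ctsg, which are made in the bone marrow before neutrophils are released, were too low to be tested. Without ligated library 2, ligated library 3 or naive library 2, no gene of the granule or the receptor list was called.

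Chemokines and cytokines known to recruit neutrophils were often highest in ligated library 3, with 9 of 12 genes of the chemokine list, and 0 of those 12 neutrophil chemokine and G-CSF pathway genes were called. DESeq2 called 2 of the 12. Cxcl5, an epithelial chemokine, was at 83.9, 244 and 809 CPM against 168, 93.6 and 102 CPM (1.65, adjusted p = 0.178). Ligated library 1 was below all naive libraries, while libraries 2 and 3 were above them. Cxcl1 (12.3, 23.8 and 75.8 CPM against 57.8, 19.2 and 15.1 CPM) and Csf3, which encodes G-CSF (3.66, 6.99 and 21.1 CPM against 10.9, 2.88 and 3.17 CPM), overlapped between the groups. Without ligated library 3 the median of the list fell from 0.95 to 0.10. The log2 fold change of Cxcl5 then went from 1.65 to 0.44 and that of Cxcl1 from 0.28 to -0.77. Il17a, a T cell cytokine that induces these chemokines, was scarce but apart, at 0.597, 0.419 and 2.26 CPM against 0.183, 0.127 and 0 CPM, and did not pass (adjusted p = 0.0769).

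Of 20 interleukin-1 family genes none was called by edgeR, and DESeq2 called 2 higher and 2 lower. Il1b was at 24.3, 42.1 and 98.7 CPM against 17.5, 12.2 and 16.9 CPM (1.82 ± 0.51, adjusted p = 0.0769). All ligated values exceeded all naive values, with ligated library 3 far above the rest. Osm, which encodes the myeloid cytokine oncostatin M, was the only called gene among 16 of the interleukin-6 family, at 1.39, 2.01 and 5.53 CPM against 0.700, 0.348 and 0.547 CPM (2.48 ± 0.53, adjusted p = 0.0327). It kept that call without ligated library 1 and lost it without any other single WT library. Il6 was at 0.124, 0.236 and 1.56 CPM against 0, 0.158 and 0.146 CPM, and Tnf at 1.82, 3.27 and 6.54 CPM against 5.60, 3.26 and 3.61 CPM, so neither separated the groups. Acod1, whose enzyme makes the macrophage metabolite itaconate (chr14:103046977-103056573, plus strand), was called at 1.99, 4.97 and 8.87 CPM against 0.731, 0.633 and 0.401 CPM (3.15 ± 0.50, adjusted p = 0.0122). Its call was lost without naive library 2 and kept without any other WT library. Of a list of 20 cytokine, oxidative stress and bone genes taken from the study's text, edgeR called 1 in the WT mice (Cybb) and DESeq2 called 7 higher and 2 lower, with a median of 0.94 that went to 0.44 without ligated library 3.

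A few monocyte and macrophage genes rose. Of 19 markers 3 were called higher by edgeR and 6 by DESeq2, against 2.31% and 5.76% of all genes tested, with a median of 0.59. Adgre1, which encodes the macrophage antigen F4/80, was at 8.71, 16.6 and 14.8 CPM against 5.30, 5.53 and 4.48 CPM (1.39 ± 0.24, adjusted p = 0.0165). Ms4a7 gave 1.36 (adjusted p = 0.040) and Csf1r, the M-CSF receptor gene, 0.84 (adjusted p = 0.0405). In all 3 genes the groups were apart. Among 16 monocyte chemokines and receptors, Ccr1 (1.85, adjusted p = 0.040) and Cx3cr1 (1.58, adjusted p = 0.0199) were called, against 5 genes by DESeq2. Ccl2, the main monocyte chemokine gene, was at 1.74, 1.83 and 4.90 CPM against 1.83, 0.759 and 2.19 CPM, with overlap. Complement receptor C3ar1 (1.48, adjusted p = 0.0243) and factor B gene Cfb (1.78, adjusted p = 0.0264) were the 2 called of 14 complement genes, whose median was 0.39. Without ligated library 2, ligated library 3 or naive library 2, no macrophage marker, monocyte chemokine, chemokine receptor or complement gene of these lists was called.

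Bone-related genes called by edgeR were few in number but a larger share than the 2.31% of all genes tested called higher. All ligated libraries were above all naive ones in 8 of 12 osteoclast and 2 of 14 osteoblast genes, against 13.3% of all genes tested. They were below them in 1 osteoblast gene. Ligated library 3 held the highest value of 8 of the 12 osteoclast and 8 of the 14 osteoblast genes. DESeq2 called 7 of the osteoclast genes higher, and of the osteoblast genes 3 higher and 1 lower. Of 12 osteoclast effector genes 2 were called higher, Ctsk and Mmp14, with a median of 1.02. Ctsk, the collagen-cutting protease of osteoclasts that fibroblasts also make, was at 84.9, 110 and 262 CPM against 31.2, 37.6 and 36.0 CPM (2.12 ± 0.47, adjusted p = 0.0375). Atp6v0d2, a proton pump subunit needed for osteoclast fusion, was at 1.72, 3.98 and 13.9 CPM against 0.548, 0.759 and 0.364 CPM (3.53, adjusted p = 0.0679). Spp1, which encodes the bone and macrophage protein osteopontin (chr5:104435118-104441050, plus strand), was the 1 called of 14 osteoblast and mineralization genes. It was at 14.3, 49.0 and 212 CPM against 5.63, 5.22 and 2.73 CPM (4.33 ± 1.02, adjusted p = 0.0449). Without ligated library 3 its log2 fold change was 2.80, and the call was kept only without ligated library 1 among the fits that left out 1 WT library.

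Of 18 genes of the TNF family and the RANKL system none was called by edgeR, against 5 by DESeq2. Tnfsf11, the RANKL gene, was at 0.821, 0.707 and 4.75 CPM in ligated and 0.487, 0.253 and 0.328 CPM in naive gingiva (2.54 ± 1.01, adjusted p = 0.190). Without ligated library 3 its log2 fold change was 1.09. Tnfrsf11b, which encodes the decoy receptor osteoprotegerin, was at 10.6, 27.6 and 47.8 CPM against 13.6, 11.3 and 10.9 CPM (1.27, adjusted p = 0.0923). Ligated library 1 was below every naive library for the decoy receptor, and ligated library 3 was the highest for both genes. The receptor gene Tnfrsf11a overlapped (3.76, 5.97 and 8.28 CPM against 2.10, 3.04 and 7.33 CPM). With 1 WT library left out, 0 to 2 osteoclast and 0 to 2 osteoblast genes were called. For the TNF and RANKL list it was 0 to 2 as well, with 2 without ligated library 1.

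**Figure D4:**
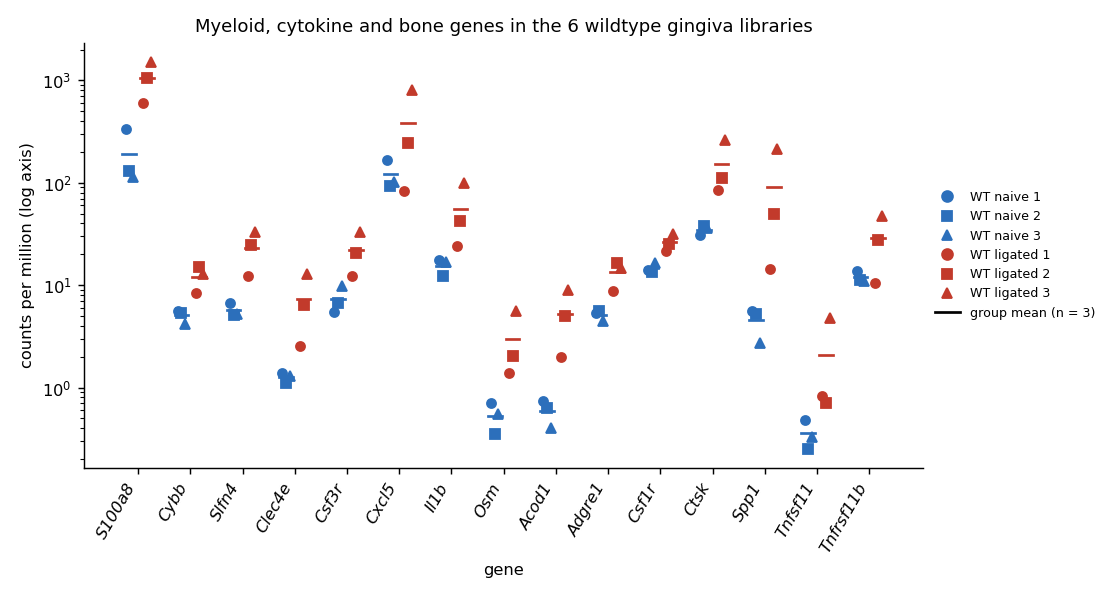
CPM (log axis) of 15 myeloid, cytokine and bone genes in the 3 WT naive (blue) and 3 WT ligated (red) libraries, with the symbol giving the library number and lines the group means. Ligated library 3 (red triangles) is the highest for most, up to 809 CPM of Cxcl5 and 212 CPM of Spp1, while Cybb, Adgre1 and Csf1r show less spread.

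Vessel genes were called more often than genes in general. All 23 genes of endothelium and leukocyte adhesion had a log2 fold change above 0, and the median was 0.84. EdgeR called 5 higher, against 2.31% of all genes tested, and DESeq2 14, against 5.76%. In 16 of them all ligated libraries were above all naive ones, against 13.3% of all genes tested. Pecam1, a junction protein of endothelium, was at 70.7, 79.0 and 107 CPM against 41.3, 43.2 and 47.1 CPM (0.97 ± 0.19, adjusted p = 0.0246). Cdh5, which encodes VE-cadherin, was at 37.8, 40.4 and 49.0 CPM against 13.5, 19.9 and 20.9 CPM (1.23 ± 0.22, adjusted p = 0.0165). Apln, the gene of a peptide made by sprouting tip cells, had the largest change of the list, 2.01 ± 0.41, and Kdr, the main VEGF receptor gene, gave 1.01 (adjusted p = 0.0462). The groups did not overlap in any of the 5 called genes. The adhesion molecule genes through which neutrophils leave the blood did not pass: Sele gave 0.82 (adjusted p = 0.322), Selp 1.35 (adjusted p = 0.178) and Icam1 0.39 (adjusted p = 0.533). Gja5, which encodes the arterial connexin 40, was one of the 27 genes that held throughout, at 3.46, 6.78 and 3.94 CPM against 0.640, 1.11 and 0.729 CPM (2.51 ± 0.36). Ligated library 3 held the highest value of 19 of the 23 genes, and without it, or without naive library 1 or 2, none of the 5 calls was made.

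Several genes of muscle regeneration and the slow fibre genes Tnnt1 and Casq2 rose, while no mature fibre gene of the skeletal muscle list, which holds neither of those, was called by edgeR. Of 20 mature and developmental muscle genes, 2 were called, Myh3 and Myh8, the embryonic and perinatal myosins. Of the mature genes, Actn3 and Myh2 had all ligated libraries above all naive ones without passing (2.22, adjusted p = 0.124, and 1.62, adjusted p = 0.1). Acta1, the skeletal actin gene, was at 392, 121 and 295 CPM in ligated and 103, 291 and 128 CPM in naive gingiva (0.63 ± 0.64, adjusted p = 0.628). The list summed to 1260 to 5090 CPM in ligated and 1650 to 4050 CPM in naive libraries. Of 22 muscle regeneration genes, 10 were called higher and none lower, with a median of 2.25. With at least 10 counts required in every library 4 were called, and on the 6 WT libraries alone 5, while DESeq2 called 14 higher.

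Tnnt1, which encodes slow skeletal troponin T (chr7:4504570-4516382, minus strand), had the smallest adjusted p of all genes, with 10.2, 8.90 and 10.9 CPM against 1.07, 1.39 and 1.06 CPM (3.09 ± 0.28, adjusted p = 0.0019). Chrna1, the acetylcholine receptor subunit gene, was also raised in all 3 ligated libraries, at 5.87, 4.87 and 4.80 CPM against 0.670, 0.474 and 0.219 CPM (3.48 ± 0.80, adjusted p = 0.041), but lost its call with any single WT library left out, while Tnnt1 kept it in each case. Several other members were much higher in ligated libraries 1 and 2 than in ligated library 3. Myh3 was at 13.5, 14.0 and 0.337 CPM against 0.0305, 0.0633 and 0.182 CPM. Myog, the transcription factor gene of myocyte differentiation, was at 4.33, 4.55 and 0.727 CPM against 0.244, 0.127 and 0.109 CPM, and Mymk, which encodes the fusion protein myomaker, at 3.51, 3.11 and 0.104 CPM against 0.0305, 0.0316 and 0 CPM. For these 3 genes ligated library 3 lay between the naive libraries and ligated libraries 1 and 2. Without it 9 of the 22 genes were called, and without naive library 2 only Tnnt1 was.

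**Figure D5:**
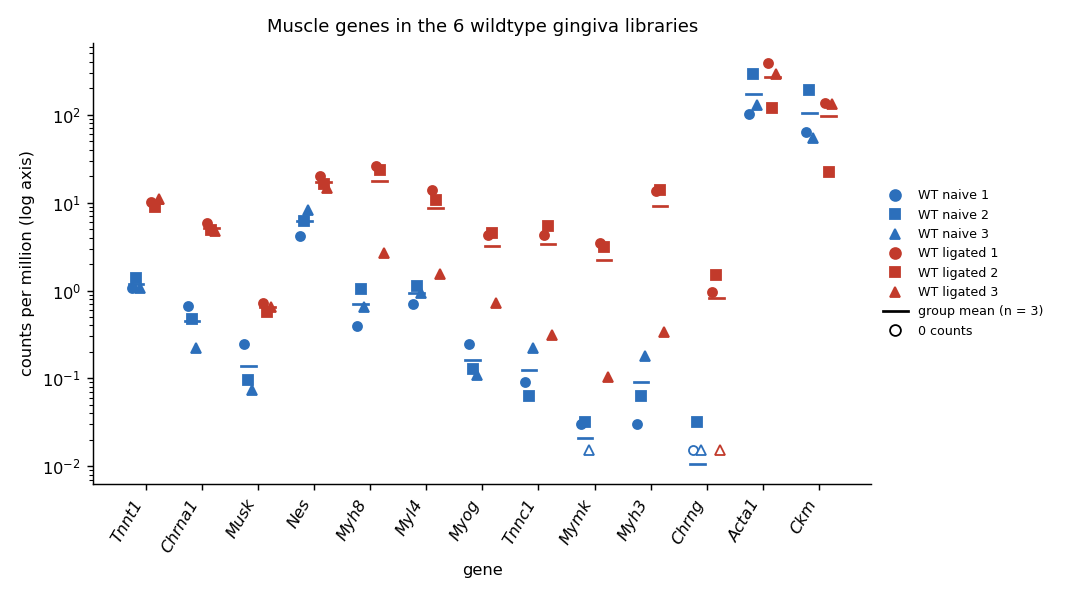
CPM (log axis) of 13 muscle genes in the 3 WT naive (blue) and 3 WT ligated (red) libraries, with the symbol giving the library number, open symbols marking 0 counts and lines the group means. Tnnt1, Chrna1, Musk and Nes are raised in all 3 ligated libraries, Myh3, Myog, Tnnc1 and Mymk mainly in libraries 1 and 2, and the adult genes Acta1 and Ckm overlap between the groups.

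Few epithelial genes were called, though in the cornified list they exceeded the share over all genes. Of 32 genes of gingival keratins and the cornified envelope, 30 had a log2 fold change below 0, with a median of -0.41. EdgeR called 3 lower, against 0.884% of all genes tested, and DESeq2 6, against 3.35%. In 11 of them all ligated libraries were below all naive ones, against 11.6% of all genes tested. Krt10, the keratin of cornifying layers (chr11:99385254-99389364, minus strand), fell from 7740, 8640 and 5190 CPM to 2790, 2760 and 1880 CPM (-1.54 ± 0.32, adjusted p = 0.0296). Casp14, a protease of terminal differentiation (-0.78, adjusted p = 0.0362), and Klk5, a desquamation protease (-0.96, adjusted p = 0.0297), were the others, and in all 3 the groups were apart. Krt13, the most abundant mucosal keratin gene, was at 37700, 28900 and 20800 CPM against 26800, 39900 and 30200 CPM (-0.15, adjusted p = 0.826). The sign of Krt13 turned without ligated library 3 or naive library 2. Of 21 stress and wound keratins and alarmins, 13 were above 0 and 8 below with a median of 0.31, edgeR called S100a8 higher, and DESeq2 called 5 higher and none lower. In that list the wound keratins Krt6a (-0.23, adjusted p = 0.531) and Krt16 (-0.20, adjusted p = 0.743) did not pass. Sprr2i, a small proline-rich gene of the envelope (chr3:92407991-92409271, plus strand), went the other way, with 54.0, 66.2 and 55.6 CPM against 4.96, 2.18 and 1.64 CPM (4.31 ± 0.62, adjusted p = 0.00836). It belongs to a family of near-identical copies among which reads can be split, and its relatives Sprr2e, Sprr2f and Sprr2h gave 1.85, 1.37 and 1.26 without passing. None of 15 junctional epithelium genes was called (DESeq2 called 1), among them Odam at 243, 270 and 721 CPM against 866, 589 and 644 CPM. Without ligated library 2 or 3 or naive library 1 or 2 none of the 3 keratin-list calls held.

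Some genes of ribosome production fell. All 33 nucleolar genes had a log2 fold change below 0, 14 were called lower by edgeR and 20 by DESeq2, and the median was -0.63. Gar1, of the RNA pseudouridylation complex, was at 19.9, 23.2 and 23 CPM against 36.4, 49.3 and 35.0 CPM (-0.87 ± 0.15, adjusted p = 0.0165). Myc, the transcription factor gene that drives this programme, was at 63.0, 66.6 and 68.8 CPM against 96.9, 88.8 and 97.5 CPM (-0.51 ± 0.10, adjusted p = 0.0247). The groups did not overlap for either. Naive library 2 held the highest value of 28 of the 33 genes, and without it none of the 14 was called. None was called either without any 1 ligated library, 3 were without naive library 1, and 20 were without naive library 3. With library totals as the scaling 7 were called, with the 6 WT libraries alone 5, and with the replicate block 2.

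Stress pathways gave 1 or 2 calls per list in edgeR. Of 25 genes of Nrf2 and its targets 1 was called lower, Cbr3 (-0.65, adjusted p = 0.0173), and 22 were below 0 with a median of -0.24, while DESeq2 called 5 lower. Nqo1, a textbook target, was at 130, 86.0 and 117 CPM against 202, 122 and 143 CPM, with overlap. Of 24 HIF-1 targets 2 were called higher, Pfkp of glycolysis (0.56, adjusted p = 0.0282) and Bnip3 of mitophagy (1.20, adjusted p = 0.0301), and 22 were above 0 with a median of 0.40, while DESeq2 called 4 higher. Hif1a itself was at 563, 700 and 754 CPM against 404, 341 and 250 CPM (1.02, adjusted p = 0.0898). None of 55 nuclear-encoded respiratory chain genes was called by edgeR or DESeq2 (median -0.05, or 0.06 with library totals as the scaling). The heat shock gene Hspa1a fell (-0.86, adjusted p = 0.044), the 1 called of 17 immediate early and heat shock genes, and the glucocorticoid receptor cochaperone genes Fkbp5 (-1.25, adjusted p = 0.034) and Fkbp4 (-0.58, adjusted p = 0.0267) were the 2 called of 15 genes that glucocorticoids induce. These calls were all lost without naive library 2.

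Among 30 genes of Wnt, TGF-beta and BMP signalling, 4 were called higher and 1 lower. DESeq2 called 6 higher and 3 lower, while edgeR called 1 with the replicate block and 2 with DESeq2's size factors. Sfrp1, which encodes a secreted Wnt antagonist, was at 55.0, 72.3 and 52.9 CPM against 28.8, 24.8 and 31.3 CPM (1.09 ± 0.17, adjusted p = 0.0125). The others were Tgfb3 (1.06, adjusted p = 0.0483), the activin subunit gene Inhba (2.07, adjusted p = 0.049), the activin antagonist gene Fst (0.88, adjusted p = 0.0435) and, lower, Bmp7 (-0.66, adjusted p = 0.0497). All 5 were apart between the groups. Only Sfrp1 was called without ligated library 2, and none was without naive library 2.

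Among lymphocyte and interferon genes there were few calls. Of 18 T and NK cell genes 1 was called, Foxp3 of regulatory T cells, at 0.846, 0.445 and 0.467 CPM against 0.152, 0.158 and 0.109 CPM (2.03, adjusted p = 0.047). Of 10 B and plasma cell genes 1 was called, Blk (2.00, adjusted p = 0.0486), which some T cells also use. Both calls were lost with any single WT library left out. DESeq2 called 3 of the 18 and 1 of the 10 genes higher. None of 18 MHC class II and dendritic cell genes and none of 9 mast cell genes was called by edgeR, against 3 and 1 by DESeq2. None of 22 type I interferon-stimulated genes and of 17 interferon-gamma targets was called by either tool, and their medians were -0.01 and -0.20. Naive library 1 held the highest value of 13 and of 14 of these genes. Cxcl9, an interferon-gamma target, was at 18.9, 0.980 and 0.0729 CPM in the naive libraries and 0.299, 0.523 and 3.04 CPM in the ligated ones. Without naive library 1 the 2 medians were 0.61 and 0.64, without ligated library 1 they were 0.19 and 0.07, and with library totals as the scaling the first was 0.11.

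Markers of tissues that can come along with the dissection gave no edgeR call, while DESeq2 called 1 gland gene higher and 1 motile cilium gene lower. The list medians were -0.82 for 13 gland genes, 1.38 for 7 red blood cell genes, -0.55 for 9 adipocyte genes, -0.05 for 10 nerve genes, -0.27 for 5 motile cilium genes and -0.15 for 3 tooth genes. The tooth median was 0.20 without ligated library 1, and the nerve median was 0.12 without ligated library 1 and 0.18 without naive library 3. With library totals as the scaling the nerve median was 0.06, and with at least 10 counts required in every library the adipocyte median was 0.14. Without naive library 3 the gland median was 1.67, and without ligated library 3 the red blood cell median was -0.44. Muc5b, the main mucin gene of these glands, was at 4980, 2870 and 2490 CPM in ligated and 55.6, 2730 and 28900 CPM in naive gingiva. Ligated library 3, which was highest for the neutrophil receptors, the vessel genes and the proteases, also held the highest value of all 7 red blood cell genes, with Hbb-bs at 692 CPM against 78.8 to 172 CPM elsewhere. The part of blood in those values was not tested. Lipf, a lipase gene, was among the largest increases (6.36 ± 1.44, adjusted p = 0.040), at 55.0, 44.1 and 1.48 CPM against 0, 0.127 and 1.17 CPM, with ligated library 3 near the naive range.

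The remaining genes with the largest changes included Sox11, a transcription factor gene of development and wound epithelium, which was at 2.22, 2.09 and 1.01 CPM against 0.0914, 0.0316 and 0.109 CPM (4.47 ± 0.86, adjusted p = 0.0244). Pdzrn4 was at 0.722, 0.837 and 3.06 CPM against 0.0609, 0.0633 and 0.109 CPM (4.27, adjusted p = 0.0312). On the lower side, Inmt, which encodes an indole methyltransferase, was at 3.51, 2.88 and 4.05 CPM against 19.4, 28.5 and 39.9 CPM (-3.07 ± 0.54, adjusted p = 0.0165). Dio3, whose enzyme inactivates thyroid hormone, was at 0.249, 0.471 and 0.519 CPM against 1.92, 2.72 and 1.57 CPM (-2.32 ± 0.46, adjusted p = 0.0264). All 4 were apart between the groups, and all 4 calls were lost without naive library 2.

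The ligature response of CybbKO mice, measured in 6 libraries that share none with the WT comparison beyond the common estimate of the spread, served as a second measure of the same genes. There 1497 genes were called higher (9.95% of those tested) and 457 lower (3.04%). All 348 genes called higher in WT had a log2 fold change above 0 in CybbKO and 312 of them were called higher, which is 89.7% of the WT calls and 20.8% of the CybbKO calls. Of the 133 genes called lower in WT, 132 were below 0 in CybbKO and 98 were called lower, which is 73.7% of the WT calls and 21.4% of the CybbKO calls. Their median log2 fold changes in CybbKO were 1.53 and -0.74, close to the WT values above.

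The list medians in CybbKO had the same sign as in WT for the collagens (2.45), the metalloproteinases and TIMPs (2.13), the G2/M (1.25) and G1/S genes (-0.65), the clock genes (-0.95), the muscle regeneration genes (1.60) and the nucleolar genes (-0.49). They had the opposite sign for, among others, the red blood cell (-0.65), adipocyte (1.87), gland (0.61) and interferon-gamma genes (0.98), lists whose WT medians also turned sign under settings given above. Of single genes with strong calls in WT, picked after their values were seen, Col11a1 gave 3.94, Kera 6.27, Ccnb2 1.81, Ccnd1 -1.70, Per2 -3.42, Npas2 2.33 and Tnnt1 3.20, and each was called. Cybb, which rose in WT, gave 0.25 in the libraries labelled CybbKO (adjusted p = 0.466), where its level was above that of every WT library. Fkbp5, which fell in WT, gave 0.21 there (adjusted p = 0.651). A test of the difference between the responses called no gene in edgeR or in DESeq2, with 342 and 447 genes at an unadjusted p under 0.05, so no WT change was shown to be absent in CybbKO or larger in either.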

How the data were processed

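RNA was measured in gingiva of 3 WT ligated, 3 WT naive and 6 CybbKO mice with polyA-selected stranded libraries. The authors deposited whole-number read counts per gene without normalization. The submitters' processing notes list FastQC 0.10.1 and HTSeq 0.10.0, and the study's methods name STAR, GRCm38 and featureCounts, so which counter made the table was not settled. Whether reads were paired is described in more than 1 way, and counts of near-identical copies are uncertain. Of 21965 genes in the table, 21939 symbols were matched to GENCODE M21. Groups were taken from the sample labels.

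The counts were scaled by TMM and filtered with filterByExpr, which left 15046 genes. They were tested in 1 fit of all 12 libraries with edgeR's quasi-likelihood test and Benjamini-Hochberg adjustment at 0.05 (R 4.3.3, edgeR 4.0.16, limma 3.58.1). SE is the log2 fold change divided by the root of F. Depth limits low genes most, and with 3 libraries against 3 the smallest exact permutation p is 0.1. P-values measure the spread among these mice. The procedure was tested on simulated data, drawn with edgeR's own estimates of the spread. There a larger share of DESeq2's calls than of edgeR's fell on genes simulated without a change. Since the setting came from edgeR's fit, it cannot decide which tool's calls are right in the measured data. DESeq2 1.42.0, other scalings and filters, the WT libraries alone, the replicate block and the removal of single libraries were alternatives. Promoters were read from a RefSeq table (GRCm38.p6, the first listed where a gene has several) as the 200 bases before the start, gene coordinates from GENCODE M21. Figures were drawn with Python 3.11.15, pandas 2.3.3 and matplotlib 3.10.9.

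The members and lists were chosen with earlier results of these data known. The lists of clock, muscle regeneration, nucleolar, G1/S, G2/M, tendon and glucocorticoid-induced genes were written after the called genes had been seen. The naming rule took the 15 largest changes in each direction among called genes whose groups did not overlap and that reached a mean of 1 CPM, the 3 most abundant members and the 3 with the smallest p of each list, all members called in lists with at most 12 of them, and the genes the study names. Other genes in the text were chosen after their values were seen.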

Additional observations from a re-analysis of the deposited data

How the results depend on the processing

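Calls in WT gingiva numbered 481 (348 higher, 133 lower, 325 over 2-fold). DESeq2 called 1372 (866 higher, 506 lower, 657 over 2-fold), among them 478 of the 481, and DESeq2 on the 6 WT libraries alone 1280 (861, 419 and 625). With library totals as the scaling 68 were called lower, and with edgeR on the 6 WT libraries alone 64. With 1 WT library left out, calls ranged from 27 to 737, those higher from 24 to 424, those lower from 3 to 313 and those over 2-fold from 27 to 425. The number of genes whose response differed between CybbKO and WT ranged from 0 to 1, and this comparison could not be run on WT libraries alone. With the replicate block 271 genes were called (214 higher, 57 lower). Beyond these values, the settings tried kept these counts over all genes within 1.5 times. The causes were not tested. Same-numbered ligated and naive libraries did not deviate together (correlations -0.18, -0.198 and -0.182), so the numbers do not pair the mice.

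Some genes that did not pass changed sign. With library totals as the scaling, Ckm gave 0.02, Dcn 0.10 and Tnf 0.02, and with the replicate block Ckm gave 0.24. With 1 WT library left out, log2 fold changes ranged as follows, the library named being the one or those that turned the sign. Cdc25b ranged from -0.01 to 0.30 (naive 1), Ckm from -0.41 to 0.70 (ligated 2, 0.36; naive 2) and Csf3 from -0.09 to 1.81 (ligated 3). Cxcl1 ranged from -0.77 to 1.12 (ligated 3; naive 3, -0.05), Cxcl9 from -4.01 to 1.23 (naive 1) and Dcn from -0.14 to 0.18 (ligated 1; naive 3, 0.08). Eif2s3y ranged from -0.01 to 0.11 (naive 3), Hbb-bs from -0.54 to 1.57 (ligated 3) and Krt13 from -0.34 to 0.04 (ligated 3; naive 2, 0.03). Mkx ranged from -0.01 to 0.47, Mmp9 from -0.14 to 1.05 (both ligated 3), Muc5b from -2.20 to 1.31 (naive 3) and Scx from -0.04 to 1.19 (naive 2). Tnf ranged from -0.71 to 0.28 (ligated 1; ligated 2, 0.00; naive 1, 0.17).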
